A study of Mus musculus with 2 samples.

Results

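The vascular endothelial growth factor (VEGF) ligands and receptors are described here in UV-positive mouse lung cells. They were chosen by gene symbol, and all 10 were found among the 32285 genes listed in both libraries. There were 5 ligands (*Vegfa*, *Vegfb*, *Vegfc*, *Vegfd* and *Pgf*), 3 receptor tyrosine kinases (*Kdr*, *Flt1* and *Flt4*) and 2 neuropilin co-receptors (*Nrp1* and *Nrp2*). To obtain the UV-positive cells, lungs were digested and live singlets were sorted for the autofluorescence that retinoids give under ultraviolet light. They came from untreated wild-type C57BL/6 male mice aged 3 months. Sequencing was done at separate times, which gave 2 libraries (1 and 2) of 1 condition. The number of mice in each library is not given in the sources used here.

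VEGF ligands are secreted and act on receptors that are found mainly on endothelium. Vegfa binds Kdr (VEGFR2), the main signaling receptor of blood endothelium, and Flt1 (VEGFR1), which binds it tightly and also binds Vegfb and Pgf. Vegfc and Vegfd are made as precursors, act through Flt4 (VEGFR3), and for Vegfc also Kdr, and are known for lymphatic growth, and the neuropilins bind both VEGF ligands and class 3 semaphorins. In the alveolus, Vegfa from alveolar type 1 (AT1) epithelium is known to act on the aerocyte, the capillary cell type of gas exchange.

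Barcodes were kept from 200 detected genes up and with no more than 10% of their UMIs (unique molecular identifiers) from mitochondrial genes, 9634 in library 1 and 9988 in library 2. A cell was placed in a class when it held at least 3 UMIs of that class's 3 markers and fewer than 3 of every other class's. There were 7645 and 7438 stromal, 56 and 360 endothelial, 930 and 101 epithelial, and 266 and 334 immune cells in libraries 1 and 2. The endothelial class of library 1 was thin, with 119534 UMIs in all against 1848091 in library 2, so that 3 UMIs made 25.1 CPM (counts of a gene scaled to 1000000 UMIs) there and 1.62 CPM in library 2. Barcodes that reached the threshold of several classes, 420 and 1640, were left out, and no doublet caller was run. Most of those in library 2, 931, held both stromal and endothelial markers. These carried 4825 *Kdr* UMIs (322 CPM), against 1065 in the endothelial class of that library. They had a median of 14766 UMIs per cell against 4028.5 in the endothelial class, so the endothelial class as defined held shallower barcodes. The libraries shared 23 barcodes.

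Lists of 5 marker genes that the rule did not use summed to their highest level in their own class. The endothelial list summed to 12867 and 10867 CPM in endothelial cells and to 43.8 and 34 CPM in stromal cells. The stromal list summed to 8413 and 9841 CPM in stromal cells and stayed at 895 and 880 CPM in endothelial cells, 10.6% and 8.95% of its stromal level. In epithelial cells it was at 3.26% and 4.81% of that level. The part of stromal RNA from other cells in the low values given below was not tested. CPM values divide by the UMIs of the group in its library, without further scaling. UMIs count the 3′ ends of transcripts, so isoforms such as soluble Flt1 or the splice forms of Vegfa cannot be told apart.

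The 250 bases upstream of the annotated start (RefSeq, GRCm38.p6) are shown for the 3 receptor tyrosine kinases, which had their highest level in the same class, and for *Vegfd*, the ligand with nearly all of its UMIs in stromal cells. Capitals mark matches on either strand to the Sp1 site GGGCGG, the ETS site CCGGAA or the TATA box TATAAA, which lie in 33.0%, 12.3% and 13% of 27025 promoters of this length.
Kdr (chr5:75978456-75978705, minus strand): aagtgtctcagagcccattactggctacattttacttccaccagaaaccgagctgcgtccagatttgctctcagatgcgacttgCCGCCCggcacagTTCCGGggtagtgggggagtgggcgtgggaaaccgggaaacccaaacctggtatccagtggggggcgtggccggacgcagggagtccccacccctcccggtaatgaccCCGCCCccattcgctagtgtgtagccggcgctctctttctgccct
Flt1 (chr5:147726012-147726261, minus strand): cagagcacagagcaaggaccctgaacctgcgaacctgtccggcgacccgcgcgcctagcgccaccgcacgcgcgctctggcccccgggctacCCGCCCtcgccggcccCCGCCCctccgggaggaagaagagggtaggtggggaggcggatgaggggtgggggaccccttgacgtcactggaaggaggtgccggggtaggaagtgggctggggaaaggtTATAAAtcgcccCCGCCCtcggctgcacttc
Flt4 (chr11:49609429-49609678, plus strand): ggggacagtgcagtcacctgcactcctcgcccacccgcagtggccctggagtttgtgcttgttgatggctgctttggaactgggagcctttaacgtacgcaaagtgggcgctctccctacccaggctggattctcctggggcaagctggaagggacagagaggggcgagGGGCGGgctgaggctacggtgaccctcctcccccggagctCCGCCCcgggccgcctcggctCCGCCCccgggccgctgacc
Vegfd (chrX:164373272-164373521, plus strand): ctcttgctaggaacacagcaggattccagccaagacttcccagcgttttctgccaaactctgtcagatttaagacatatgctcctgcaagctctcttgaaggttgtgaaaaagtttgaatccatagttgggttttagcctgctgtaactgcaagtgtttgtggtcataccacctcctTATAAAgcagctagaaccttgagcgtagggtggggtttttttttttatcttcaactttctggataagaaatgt
*Kdr* had 1 ETS match, read on the opposite strand, 153 bases upstream, between Sp1 matches. *Flt1* had 3 Sp1 matches and a TATA match 31 bases upstream, and *Flt4* had 3 Sp1 matches and none to the other motifs. *Vegfd* had no Sp1 match and a TATA match 73 bases upstream, with a GC content of 42.4% against 61.6% to 70.4% in the other windows shown. The hypoxia response element core ACGTG, found in 16.5% of all promoters, was in none of the 10 windows. A match or its absence describes these letters only.

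Stromal cells, the fibroblast-like cells that made up most of the sort, carried the ligands *Vegfa*, *Vegfb* and *Vegfd* and the co-receptors *Nrp1* and *Nrp2*, and endothelial cells carried *Kdr*, *Flt1* and *Flt4* together with *Vegfa*, *Vegfc* and *Nrp1*. Between endothelial and stromal cells all 9 members tested passed the test, against 32.1% of 11832 genes, 6 higher and 3 lower in endothelial cells. The test was edgeR's quasi-likelihood test on UMIs summed per library and class with the library as a block, two-sided, and all adjusted p-values below are from it after Benjamini-Hochberg adjustment over all genes tested. *Pgf* was too low to be tested between the classes. Fold changes are on the TMM scale, which corrects for the make-up of each sum. Relative to plain library totals it shifted the log2 fold changes of single genes. The median of these shifts over genes was -0.17 for endothelial, 0.56 for epithelial and 0.27 for immune against stromal cells. It was -0.72 for endothelial against epithelial, -0.44 for endothelial against immune and 0.28 for epithelial against immune cells.

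**Figure D1:**
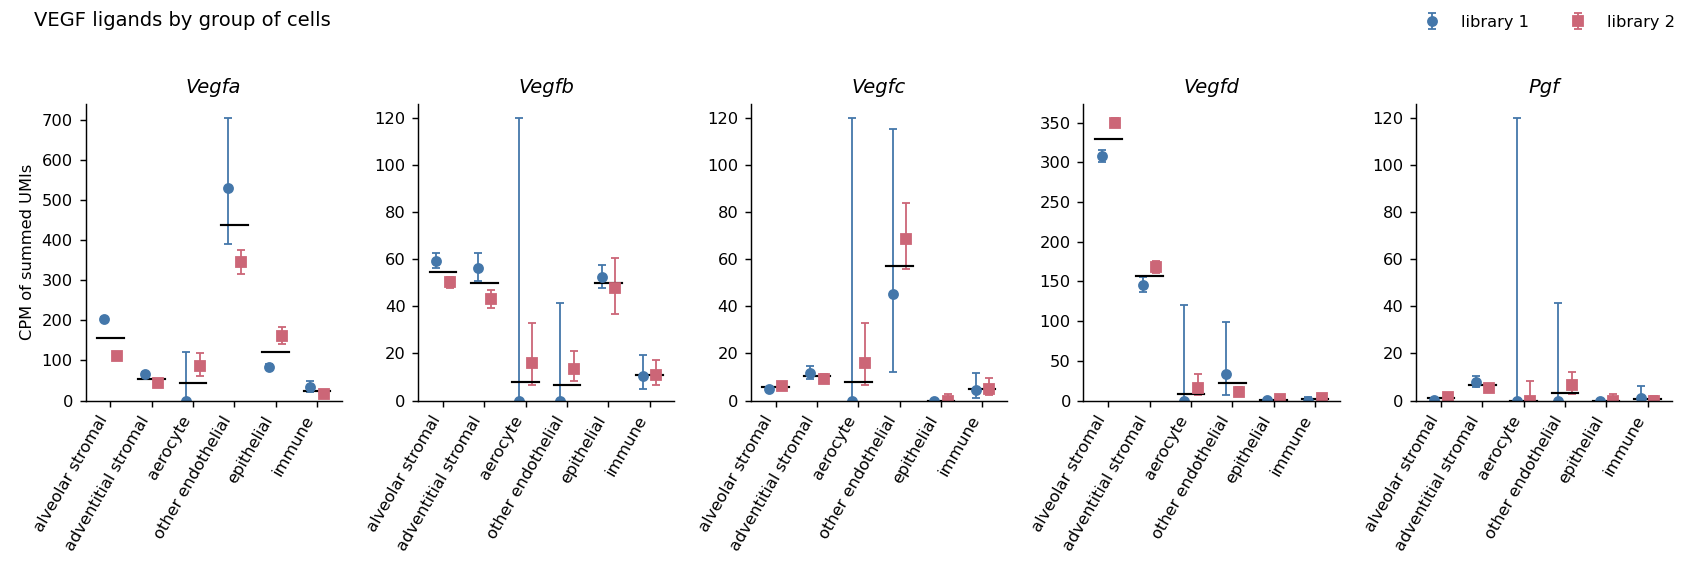
CPM of the 5 ligands (y axis, linear, separate for each gene) in 6 groups of cells (x axis), with library 1 as circles, library 2 as squares, 95% exact Poisson intervals (counting error only) as whiskers and the mean of the libraries as a black line. *Vegfd* stood highest in alveolar stromal cells (308 and 350 CPM) and *Vegfa* in endothelial cells other than aerocytes (529 and 344 CPM).

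*Vegfa*, the central angiogenic ligand, was at 166 and 90.6 CPM in stromal, 393 and 284 CPM in endothelial, 83.8 and 160 CPM in epithelial and 33.1 and 16.5 CPM in immune cells of libraries 1 and 2. Both endothelial values lay above every other class. The log2 fold change of endothelial over stromal cells was 1.15 ± 0.32 (SE, n = 2 libraries, adjusted p = 0.00546). That call was lost without the library block (adjusted p = 0.0964) and in DESeq2 (adjusted p = 0.0604). Stromal and epithelial levels overlapped, and their difference did not pass the test (adjusted p = 0.192), while immune cells were lower than stromal cells (log2 fold change -2.15 ± 0.36, adjusted p = 1.4e-05). Endothelial and epithelial cells did not differ beyond the test's threshold either (log2 fold change 0.66 ± 0.32, adjusted p = 0.107). That difference passed once the 6 AT1-like cells of library 2 were left out of the epithelial class (1.54, adjusted p = 4.93e-06) and with plain library totals (1.43, adjusted p = 0.00191).

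Because stromal cells outnumbered the others, they still held 87.6% and 87.3% of the *Vegfa* UMIs counted in the 4 classes. Endothelial cells held 0.726% and 8.61% of them. These shares follow the number of cells of each class in the sort as well as the level per cell. After every cell was thinned to 2000 UMIs, which left out shallower cells (30 of 56 and 48 of 360 endothelial, 778 and 43 stromal), 34.6% and 41.3% of endothelial and 27.4% and 16.7% of stromal cells held a *Vegfa* UMI. The unthinned shares were 44.6% and 57.5% in endothelial and 43.7% and 44.0% in stromal cells, and immune cells had 3.78% and 3.23% after thinning.

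*Vegfd*, which in the mouse is a ligand of Flt4, was at 267 and 297 CPM in stromal cells and at 25.1 and 11.9 CPM in endothelial cells. In epithelial cells it was at 0.925 and 1.46 CPM and in immune cells at 0 and 2.76 CPM. Stromal cells thus stood apart from all other classes, and they held 99.9% and 99.8% of the UMIs of this gene in the 4 classes. The log2 fold change against stromal cells was -4.66 ± 0.37 in endothelial cells (adjusted p = 1.19e-10), -7.49 ± 0.39 in epithelial cells (adjusted p = 1.76e-14) and -7.02 ± 0.43 in immune cells (adjusted p = 3e-13). The endothelial level was 9.42% and 4.01% of the stromal level, no higher than that of the stromal marker list. In stromal cells thinned to 2000 UMIs, 12.3% and 8.36% held both *Vegfa* and *Vegfd*, and 26.3% and 34.1% held *Vegfd* without *Vegfa*.

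*Vegfc*, the other ligand of Flt4, was highest in endothelial cells. It was at 33.5 and 56.3 CPM in endothelial cells, from 4 and 104 UMIs, and at 6.24 and 6.64 CPM in stromal cells. The endothelial level was higher by 2.73 ± 0.43 on the log2 scale (adjusted p = 1.33e-05). Immune cells, at 4.56 and 4.96 CPM, did not differ from stromal cells beyond the threshold (adjusted p = 0.792). Epithelial cells held no *Vegfc* UMI in either library, so that the endothelial level was at least 96.5-fold and 25.6-fold higher, with the epithelial level set to the 3 UMIs per library that a count of 0 allows. In thinned cells the share with a *Vegfc* UMI was 3.85% and 5.77% in endothelial and 1.0% and 1.19% in stromal cells.

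*Vegfb*, a ligand of Flt1, was at 58.0 and 48.8 CPM in stromal and at 52.4 and 47.6 CPM in epithelial cells, which overlapped (adjusted p = 0.14). Immune cells were at 10.3 and 11 CPM and endothelial cells at 0 and 14.1 CPM, and these did not differ beyond the threshold (adjusted p = 0.851). Endothelial cells were lower than stromal cells (log2 fold change -2.17 ± 0.38, adjusted p = 4.69e-05), and library 1 alone held no endothelial UMI of this gene. *Pgf* (placental growth factor) was at 1.85 and 2.42 CPM in stromal and 0 and 4.87 CPM in endothelial cells. It had no UMI in epithelial cells and 1 and 0 UMIs in immune cells, and every class overlapped another.

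**Figure D2:**
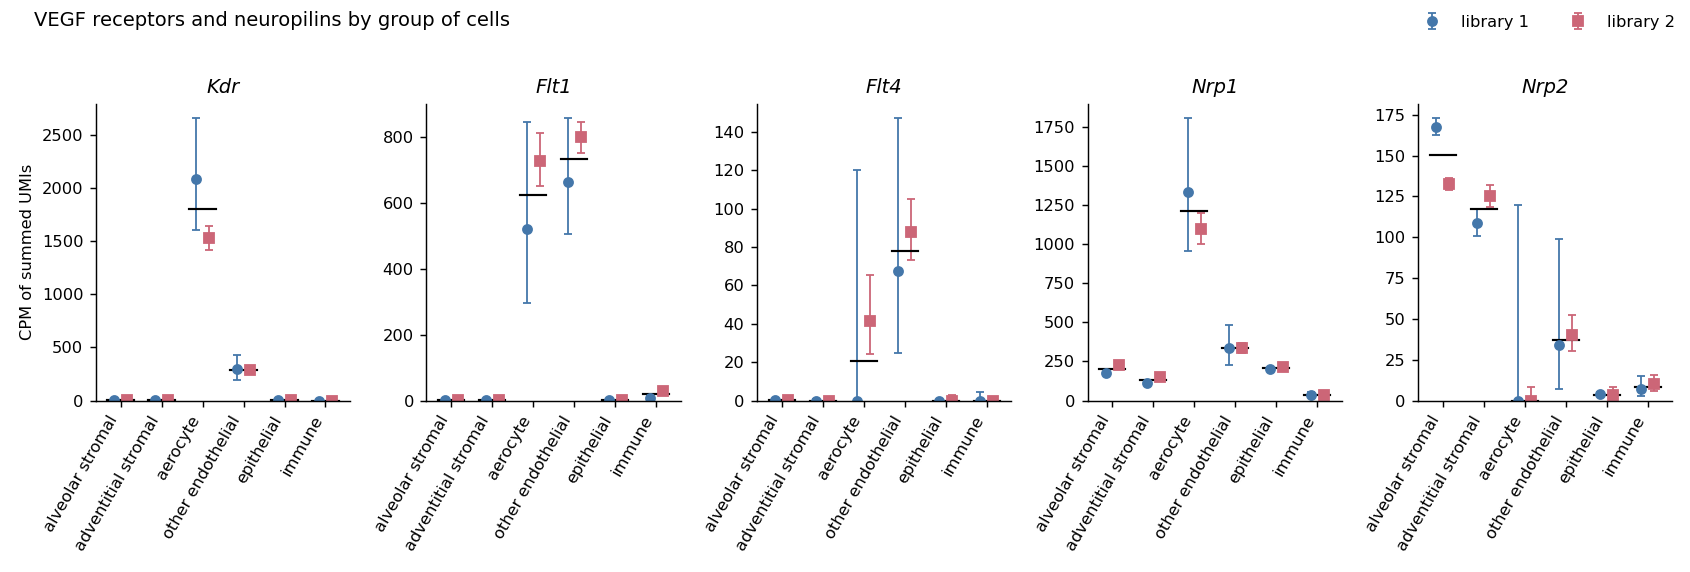
CPM of the receptors and neuropilins (y axis, linear, separate for each gene) in the same groups (x axis), with library 1 as circles, library 2 as squares, 95% exact Poisson intervals as whiskers and the mean as a black line. *Kdr* and *Nrp1* stood highest in aerocytes (2080 and 1525, and 1332 and 1095 CPM), whereas the *Flt1* values of aerocytes and other endothelial cells overlapped.

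*Kdr* was at 753 and 576 CPM in endothelial cells and at 0.439 and 1.98 CPM in the stromal class (log2 fold change 8.86 ± 0.41, adjusted p = 7.39e-15). Epithelial cells had 2 and 1 UMIs. No immune cell held a *Kdr* UMI, and endothelial cells were at least 220-fold and 348-fold higher than the level that 3 UMIs per library would have given there. In thinned stromal cells 0.0437% and 0.257% held a UMI, against 57.7% and 48.7% of endothelial cells, with median depths before thinning of 4297 and 7083.5 UMIs in stromal and 1899.5 and 4028.5 UMIs in endothelial cells.

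*Flt1* was at 627 and 782 CPM in endothelial, 0.674 and 1.52 CPM in stromal and 0.116 and 1.46 CPM in epithelial cells. Its log2 fold change of endothelial over stromal cells was 9.12 ± 0.35 (adjusted p = 2.28e-16). Immune cells stood between, at 9.12 and 30.3 CPM, which was higher than stromal cells by 4.45 ± 0.36 on the log2 scale (adjusted p = 8.41e-11) and lower than endothelial cells (endothelial over immune 4.66 ± 0.32, adjusted p = 1.1e-11). The 5-gene endothelial list summed to 11.4 and 35.3 CPM in immune cells and to 43.8 and 34 CPM in stromal cells. The part of endothelial RNA in the immune *Flt1* value was not tested. Of the 55 immune *Flt1* UMIs of library 2, 32 lay in the 10 alveolar macrophage-like cells (272 CPM, 95% exact Poisson interval 186 to 384), 11 in dendritic-like cells (15.1 CPM) and 8 in monocyte-like cells (67.0 CPM). Library 1 had a single alveolar macrophage-like cell, with 1 *Flt1* UMI, and 6 of its 8 immune UMIs lay in dendritic-like cells. Neutrophil-like and interstitial macrophage-like cells had none in either library.

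*Flt4*, the receptor of Vegfc and Vegfd, was at 50.2 and 76.8 CPM in endothelial cells, from 6 and 142 UMIs, and at 0.0879 and 0.0853 CPM in stromal cells (log2 fold change 9.24 ± 0.65, adjusted p = 4.06e-11). It had no UMI in epithelial or immune cells. The endothelial level was at least 145-fold and 35.0-fold higher than the epithelial level that 3 UMIs per library would give, and at least 14.7-fold and 46.4-fold higher than such an immune level. *Prox1*, which marks lymphatic endothelium, had a UMI in 0 of 56 and 3 of 360 endothelial cells, at 0 and 16.8 CPM. *Mmrn1*, on the same lymphatic list, was at 0 and 92.5 CPM in the endothelial class, from 0 and 171 UMIs. The part of lymphatic cells in the *Flt4* value was not tested. In endothelial cells other than aerocytes the lymphatic list summed to 946 and 2386 CPM, with *Lyve1* the only one of its 5 genes with a UMI in library 1.

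*Nrp1* was counted in every class. It was at 594 and 514 CPM in endothelial, 163 and 208 CPM in stromal, 201 and 215 CPM in epithelial and 36.5 and 34.7 CPM in immune cells. Endothelial cells were higher than stromal cells by 1.32 ± 0.23 on the log2 scale (adjusted p = 5.96e-05), and immune cells were lower than stromal cells (-2.11 ± 0.26, adjusted p = 1.32e-07). Epithelial cells passed the test against stromal cells (0.72 ± 0.22, adjusted p = 0.0103) although their CPM overlapped. With plain library totals that difference was 0.16 (adjusted p = 0.522), and it was also lost without the library block (0.0706), without the count filter (0.112), in strict classes (0.0833) and in thinned cells (0.107). The endothelial difference from epithelial cells (0.60 ± 0.24, adjusted p = 0.0452) was lost with RLE size factors (adjusted p = 0.0689), without the count filter (0.333), without the block (0.144) and in thinned cells (0.0791).

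*Nrp2*, the neuropilin known for binding Vegfc, was at 155 and 131 CPM in stromal and at 25.1 and 30.8 CPM in endothelial cells. It was at 3.70 and 3.66 CPM in epithelial and 6.84 and 9.93 CPM in immune cells. Stromal cells were thus the highest class, and endothelial cells were lower (log2 fold change -2.39 ± 0.30, adjusted p = 4.64e-07). Epithelial cells were lower than stromal cells (-4.72 ± 0.31, adjusted p = 1.39e-12) and did not differ from immune cells beyond the threshold (adjusted p = 0.0693). In stromal cells thinned to 2000 UMIs, 7.60% and 8.33% held both neuropilins, 19.7% and 24.9% *Nrp1* alone and 18.5% and 14.9% *Nrp2* alone.

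**Figure D3:**
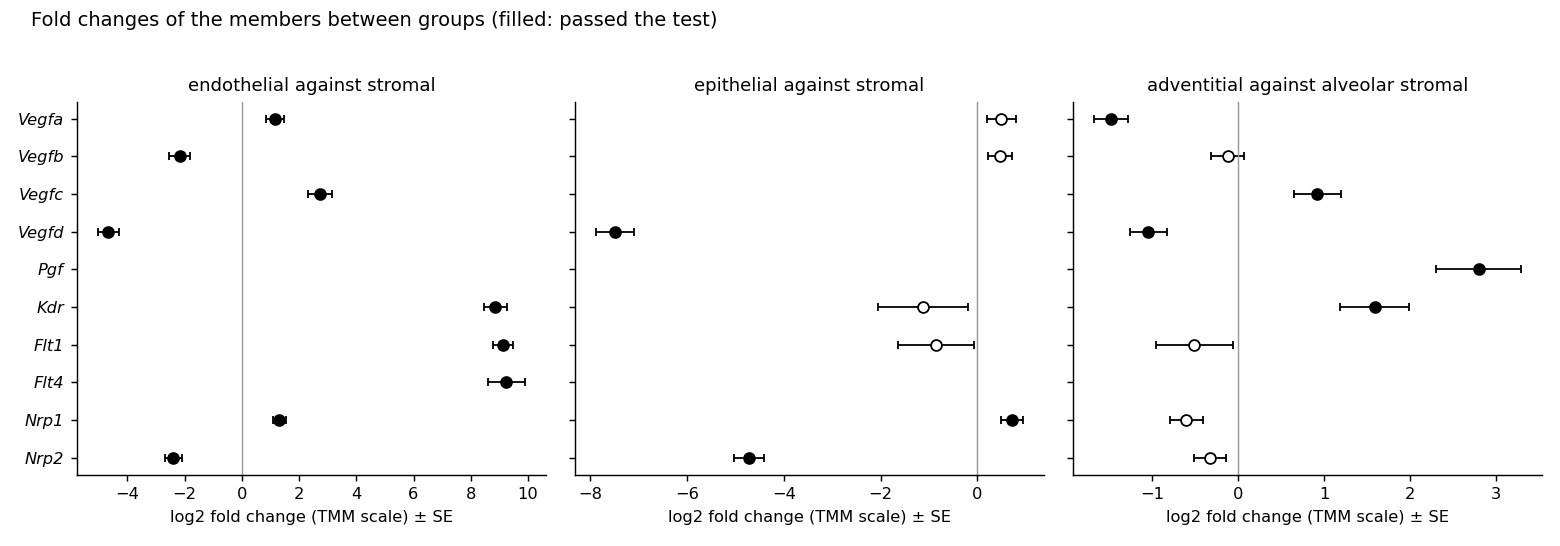
Log2 fold changes of the members on the TMM scale (x axis, a separate range in each panel) with 1 SE as whiskers, for endothelial against stromal, epithelial against stromal and adventitial against alveolar stromal cells, filled where the adjusted p was under 0.05. Members that were not tested, or that had no UMI in the first group (*Vegfc* and *Flt4* in epithelial cells, *Flt4* in adventitial cells), are left out, and the receptor tyrosine kinases lie near 9 in the first panel.

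Over the other comparisons, 4 of 9 members passed for epithelial against stromal cells (46.0% of all genes), 1 higher (*Nrp1*) and 3 lower (*Vegfc*, *Vegfd* and *Nrp2*), and 6 of 9 for immune against stromal cells (50.8% of all genes), 1 higher (*Flt1*) and 5 lower. For endothelial against epithelial cells 8 of 9 passed (39.7% of all genes), 7 of them higher, and *Vegfb* lower (log2 fold change -2.64 ± 0.39, adjusted p = 4.86e-06). For endothelial against immune cells 8 of 9 passed (37.1% of all genes), all higher, and for epithelial against immune cells 5 of 9 passed (47.4% of all genes), 3 higher (*Vegfa*, *Vegfb* and *Nrp1*) and 2 lower (*Vegfc* and *Flt1*). Of the endothelial against immune calls, *Vegfd* was lost in strict classes (adjusted p = 0.117) and *Nrp2* in thinned cells (0.240). Each had 3 endothelial UMIs in library 1. The epithelial against immune call of *Vegfc* was also lost in thinned cells (0.205). The counts for epithelial against stromal and for epithelial against immune cells lie close to the share of all genes, and that for immune against stromal cells is not far above it. The median log2 fold change of the members was 1.32 for endothelial against stromal cells and -0.12 over all genes tested.

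The endothelial class was split by the rule into aerocytes, with more UMIs of *Car4* and *Ednrb* than of *Gpihbp1* and *Plvap*, and other endothelial cells. There were 11 and 66 aerocytes and 45 and 294 others. A list of 5 aerocyte genes not used by the rule summed to 5005 and 4280 CPM in aerocytes and 282 and 721 CPM in the others, and the general capillary list to 32.5 and 1436 CPM in aerocytes and 3008 and 4595 CPM in the others. With 11 aerocytes, library 1 was under the minimum of 20 cells set for a fit, so these groups are given as values first, and the test without that minimum was added after the data had been seen.

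*Kdr* was at 2080 and 1525 CPM in aerocytes and at 293 and 283 CPM in other endothelial cells. *Nrp1* was at 1332 and 1095 CPM against 338 and 334 CPM. For both genes the libraries of the groups did not overlap, and neither did their counting intervals. *Flt1* was at 520 and 728 CPM in aerocytes and at 665 and 799 CPM in the others, which overlapped.

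*Vegfa* and *Vegfc* were lower in aerocytes. *Vegfa* was at 0 and 87.0 CPM in aerocytes, from 0 and 38 UMIs, and at 529 and 344 CPM in the other endothelial cells, at least 5.43-fold higher in library 1 by the floor of 3 UMIs. *Vegfc* was at 0 and 16 CPM against 45.1 and 68.7 CPM. *Nrp2* had no UMI in aerocytes and was at 33.8 and 40.4 CPM in the others, at least 5.88-fold higher in library 2, while library 1 was too thin to give a bound. *Flt4* was at 0 and 41.2 CPM against 67.6 and 87.9 CPM. For *Vegfc* and *Flt4*, too, the 0 of library 1 carries no information, since 3 UMIs made 97.5 CPM in its aerocytes. The remaining ligands did not separate the groups. *Vegfb* was at 0 and 16 CPM in aerocytes and 0 and 13.5 CPM in the others, and *Vegfd* at 0 and 16 CPM against 33.8 and 10.6 CPM. *Pgf* had no UMI in aerocytes and was at 0 and 6.38 CPM in the others.

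In the fit without the minimum of cells, 5 of 10 members passed, against 2.64% of 11892 genes. *Kdr* was higher in aerocytes by 2.44 ± 0.33 on the log2 scale (adjusted p = 8.51e-06) and *Nrp1* by 1.61 ± 0.29 (adjusted p = 0.000518). *Vegfa* was lower (-2.27 ± 0.38, adjusted p = 0.000175), as was *Vegfc* (-2.21 ± 0.59, adjusted p = 0.0336), and *Nrp2* also passed (adjusted p = 0.00105), its fitted fold being no bound. *Flt1* (adjusted p = 0.643), *Flt4* (adjusted p = 0.278), *Pgf* (adjusted p = 0.528), *Vegfb* and *Vegfd* (both adjusted p = 1) did not pass.

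**Figure D4:**
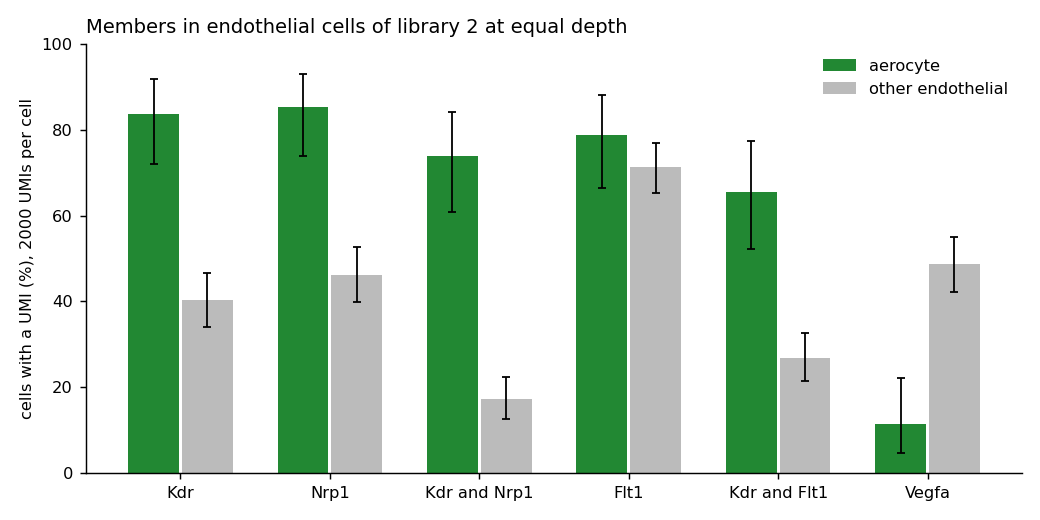
Share of aerocytes (green) and other endothelial cells (grey) of library 2 with a UMI of the members named on the x axis, or of both members of a pair, after thinning each cell to 2000 UMIs (y axis, percent). Whiskers are 95% Clopper-Pearson intervals (counting error only), and *Kdr* with *Nrp1* was found in 73.8% of 61 aerocytes and 17.1% of 251 other cells.

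Among thinned cells of library 2, *Kdr* was found in 83.6% of aerocytes and 40.2% of the others and *Nrp1* in 85.2% and 46.2%. *Kdr* and *Nrp1* were found together in 73.8% of aerocytes (95% Clopper-Pearson interval 60.9% to 84.2%) and in 17.1% of the others (12.7% to 22.4%). These joint shares go with the single-gene shares, and no pairing beyond them was tested. In library 1 they were found together in all 9 thinned aerocytes and in 4 of 17 others. *Kdr* with *Flt1* was found in 65.6% of aerocytes and 26.7% of the others in library 2. *Flt1* without *Kdr* was the more common state in the others, at 44.6% against 13.1%. A *Vegfa* UMI was found in 11.5% of aerocytes and 48.6% of the others. Shares within a library describe its cells and carry no test.

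Within the whole endothelial class, cells with at least 2 UMIs of a venous list (*Vwf*, *Slc6a2*, *Nr2f2* and *Vcam1*) held *Vegfc* at 115 CPM in library 2 (111 cells), against 17.9 CPM in cells without, and all 4 *Vegfc* UMIs of library 1 were in its 8 such cells. *Nrp2* was likewise at 60.3 against 11.6 CPM and *Flt4* at 118 against 50.1 CPM in library 2, whereas *Kdr* was lower there, at 366 against 713 CPM. In library 1 *Flt4* was at 50.2 CPM on both sides of this split, from 6 UMIs in all. The order was the same for cells with at least 2 UMIs of the lymphatic list in library 2, which held *Flt4* at 90.7 against 43.8 CPM, *Nrp2* at 40.8 against 7.31 CPM, *Vegfc* at 66.1 against 32.9 CPM and *Kdr* at 479 against 807 CPM. Those were 218 of the 360 endothelial cells of that library, whereas only 3 cells of the class held a *Prox1* UMI. *Mmrn1* had 171 UMIs in that class. Cells with at least 2 UMIs of an arterial list (*Gja5*, *Gja4*, *Sox17*, *Cxcl12* and *Hey1*) held *Vegfa* at 581 and 330 CPM, against 166 and 105 CPM in cells without, and *Kdr* at 336 and 450 CPM against 1256 and 1061 CPM. There were 30 and 253 cells with that list and 26 and 107 without. Cells without the arterial list also held more *Nrp1*, at 905 and 844 CPM against 336 and 427 CPM in cells with it. High *Kdr* and *Nrp1* with low *Vegfa* was the pattern of aerocytes above. None of these splits was made with aerocytes left out, so vessel type and the aerocyte split cannot be told apart in them. These lists favor deeper cells and the splits overlap, so the values are descriptions.

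Stromal cells were split by *Dcn* into alveolar (5805 and 5545 cells without a UMI) and adventitial (1017 and 998 cells with at least 3). The adventitial cells were the deeper, with medians of 6034 and 10656 UMIs against 3958 and 6545. A list of 5 adventitial genes summed to 3731 and 1816 CPM in adventitial and 2084 and 991 CPM in alveolar cells. It was higher in adventitial cells within each library, but the groups overlapped across libraries, so this check separates them only in part. Between these groups 5 of 10 members passed the test, against 9.97% of 13312 genes, 3 higher and 2 lower in adventitial cells. All 5 calls were lost when the library was not a block, and *Vegfc*, *Pgf* and *Kdr* were lost in DESeq2. The lowest adjusted p among the members without the block was 0.0537 (*Pgf*).

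The ligands that dominated stromal cells leaned to the alveolar group. *Vegfd* was at 308 and 350 CPM in alveolar and 146 and 168 CPM in adventitial cells, lower in the latter (log2 fold change -1.04 ± 0.21, adjusted p = 0.00136). *Vegfa* was at 203 and 110 CPM against 64.9 and 42.7 CPM (log2 fold change -1.48 ± 0.20, adjusted p = 1.1e-05). For both genes the alveolar cells were the higher group in each library and the groups did not overlap. The AT1 list (*Ager*, *Hopx* and *Rtkn2*) was also higher in alveolar cells, at 81.6 and 124 CPM against 13.3 and 24.2 CPM. Its gene *Ager* was at 2.75 and 17.3 CPM over all stromal cells. The study reports high *Hopx* in a lipofibroblast cluster, so the list is not specific to AT1 RNA in stromal cells. The sum of 3 red cell genes was higher in alveolar cells too, at 83.4 and 274 CPM against 0.632 and 1.81 CPM. The part of AT1 or red cell RNA in the *Vegfa* value was not tested. *Vegfb*, at 59.4 and 50.1 CPM against 56.3 and 43.1 CPM, did not differ beyond the threshold (adjusted p = 0.821).

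The rarer ligands leaned to the adventitial group. *Pgf* was at 7.90 and 5.35 CPM in adventitial cells, from 50 and 62 UMIs, and at 0.427 and 1.42 CPM in alveolar cells, a log2 fold change of 2.80 ± 0.49 (adjusted p = 0.000327). The pericyte list (*Cspg4*, *Notch3*, *Cox4i2*, *Higd1b* and *Pdgfrb*) was at 52.6 and 46.1 CPM in adventitial and 24.3 and 30.0 CPM in alveolar cells. It is not specific to pericytes here, since the study reports *Pdgfrb* at a relatively low level in its adventitial-type fibroblast cluster. Over all stromal cells *Notch3* was at 0.762 and 1.69 CPM and *Cox4i2* at 1.38 and 3.14 CPM. The part of pericyte RNA in the *Pgf* value was not tested. *Vegfc* was at 11.9 and 9.15 CPM against 4.74 and 6.34 CPM (0.92 ± 0.27, adjusted p = 0.0313), a call also lost in cells thinned to 2000 UMIs (adjusted p = 0.0811). *Kdr* passed as well (1.59 ± 0.40, adjusted p = 0.0107), at levels of 1.42 and 3.63 CPM against 0.213 and 1.42 CPM, from 9 and 42 UMIs. The endothelial list was at 56.7 and 30.4 CPM in adventitial and 41.3 and 34.9 CPM in alveolar cells. A lymphatic list (*Prox1*, *Mmrn1*, *Ccl21a*, *Lyve1* and *Pdpn*) was at 63.7 and 47.6 CPM against 15.1 and 12.6 CPM. Over all stromal cells *Prox1* had 13 and 11 UMIs and *Mmrn1* 2 and 5, so this sum came mostly from the other genes of the list. The part of either list in the *Kdr* value was not tested.

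The neuropilins differed less. *Nrp1* was at 114 and 149 CPM in adventitial and 179 and 227 CPM in alveolar cells (log2 fold change -0.60 ± 0.20, adjusted p = 0.0548). It passed in DESeq2 (adjusted p = 0.00638) and when only the 4 sums compared were fitted (adjusted p = 0.00258). *Nrp2* was at 109 and 125 CPM against 168 and 132 CPM (adjusted p = 0.376). *Flt1* and *Flt4* were at or below 1.5 CPM in both groups.

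**Figure D5:**
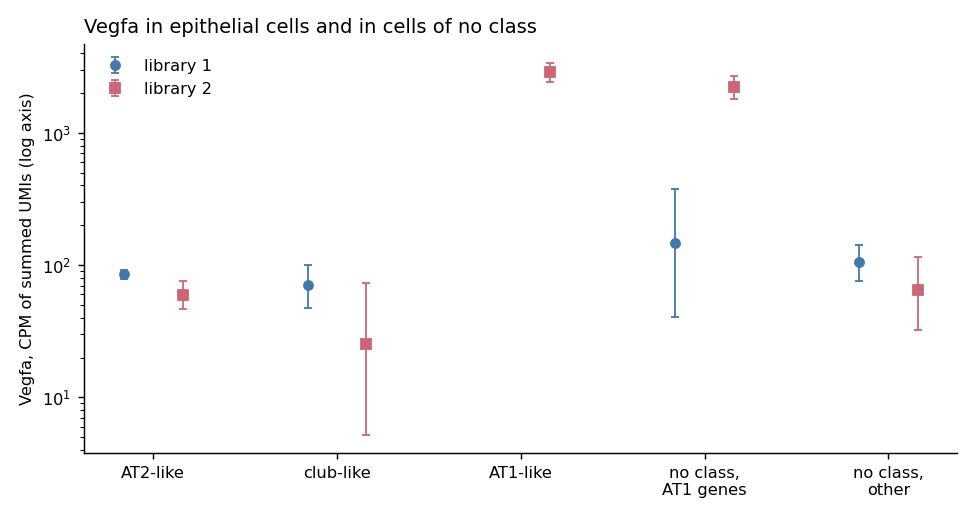
CPM of *Vegfa* (y axis, log scale) in AT2-like, club-like and AT1-like epithelial cells and in cells of no class with or without at least 3 UMIs of the AT1 list (x axis), with library 1 as circles, library 2 as squares and 95% exact Poisson intervals as whiskers. The 6 AT1-like cells of library 2 stood at 2888 CPM, and library 1 held no such cell.

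The epithelial class was mostly of alveolar type 2 (AT2)-like cells, 874 and 84, named by *Slc34a2*, *Abca3* and *Lamp3*, the last of which the rule also used. They held *Vegfa* at 84.9 and 59.5 CPM, *Nrp1* at 205 and 226 CPM and *Vegfb* at 53.9 and 45.1 CPM. Library 2 also held 6 AT1-like cells, named by *Ager*, *Hopx* and *Rtkn2*, with 146 *Vegfa* UMIs (2888 CPM, 95% exact Poisson interval 2439 to 3396). These 6 cells, of 101 epithelial cells, gave 146 of the 219 epithelial *Vegfa* UMIs of that library. All 6 held a *Vegfa* UMI after thinning, against 5.95% of 84 AT2-like cells of the same library. The 5-gene stromal list summed to 2255 CPM in the AT1-like cells, and library 1 held no AT1-like cell, so there was no test. Club-like cells (46 and 9) held *Vegfa* at 70.5 and 25.3 CPM.

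Genes of the same pathways were read from lists that did not hold the members. Of 11 genes of endothelial VEGF signaling and response, 7 were higher in endothelial than in stromal cells and none was lower (32.1% of all genes passed). Their median log2 fold change was 4.59, against -0.12 over all genes tested. The largest were *Robo4*, an endothelial guidance receptor, at 125 and 111 CPM against 0.0586 and 0.119 CPM (9.87 ± 0.55, adjusted p = 4.95e-13), and *Esm1*, a secreted proteoglycan of endothelial tip cells, at 92.0 and 36.3 CPM against 0.205 and 0 CPM (9.14 ± 0.91, adjusted p = 6.9e-09). Of 6 angiopoietin-Tie genes tested, 5 passed (32.1% of all genes), with *Tie1* at 360 and 271 CPM in endothelial cells and the phosphatase gene *Ptprb* at 1288 and 1583 CPM among the 3 that were higher. The 2 that were lower in endothelial cells were *Angpt1*, a Tek ligand, and *Svep1*.

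Of the 7 class 3 semaphorins, ligands of the neuropilins, 3 were higher in endothelial than in stromal cells (*Sema3g*, *Sema3f* and *Sema3c*) and none was lower, beside 32.1% of all genes that passed in either direction. *Sema3g* was at 192 and 213 CPM against 0.205 and 0.358 CPM (9.16 ± 0.41, adjusted p = 1.94e-15). Between the stromal groups, 3 of the 7 were higher in adventitial cells (*Sema3d*, *Sema3a* and *Sema3c*), beside 9.97% of all genes that passed in either direction. *Sema3d* was at 55.6 and 71.3 CPM against 4.65 and 5.57 CPM (3.65 ± 0.22, adjusted p = 2.08e-10). Of 4 plexins tested, 3 were higher in endothelial than in stromal cells (32.1% of all genes passed), the first being *Plxna4* (5.89 ± 0.52, adjusted p = 9.22e-10).

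Of 4 tested genes that mature the Vegfc and Vegfd precursors, 2 were lower in endothelial than in stromal cells and none was higher (32.1% of all genes passed), with a median log2 fold change of -0.57 against -0.12 over all genes tested. *Ccbe1*, which is needed for Vegfc cleavage, was at 21.7 and 37.0 CPM in stromal and 0 and 2.71 CPM in endothelial cells (-4.00 ± 0.62, adjusted p = 1.05e-05), and its 0 in library 1 carries no information, since 3 UMIs made 25.1 CPM there. *Pcsk5*, a proprotein convertase, passed with a smaller difference (-0.99 ± 0.33, adjusted p = 0.0231) and its libraries overlapped. Of 6 hypoxia regulators, *Epas1* (HIF-2α) was the only one that passed between endothelial and stromal cells, beside 32.1% of all genes. It was at 1581 and 2727 CPM against 30.4 and 44.2 CPM (5.57 ± 0.30, adjusted p = 5.15e-14). It was lower in adventitial than in alveolar cells (log2 fold change -1.47 ± 0.24, adjusted p = 0.000125).

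Over 10 points (alveolar stromal, adventitial stromal, other endothelial, AT2-like and immune cells in both libraries), the genes with the pattern most like each member were found by Pearson's r of log2(CPM + 1) among 8711 genes (8712 for *Pgf*). For *Kdr* they were *Adcy4* (r = 0.991), *Tek* (0.988) and *Ripor1* (0.988). For *Flt4* they were *Chrm2*, *Ackr2* and *Robo4* (each 0.999), and for *Flt1*, next to the class marker *Pecam1*, *Icam2* (0.995) and *Vwf* (0.992). For *Vegfd* they were *Slit3* (0.992), *Vgll3* (0.991) and *Ndrg2* (0.989), and for *Nrp2* *Vstm4* (0.992), *Fkbp7* and *Adprhl2* (both 0.991). For *Vegfa* they were *Hes1* (0.964), *Mast4* (0.954) and *Gfod2* (0.949), and for *Nrp1* *Ano6* (0.985), *Ick* (0.975) and *Apbb2* (0.974). For *Vegfb* they were *Msrb2* (0.988), *Cd320* (0.986) and *Clpb* (0.981), for *Vegfc* *Pea15a* (0.981), *Slc39a6* (0.980) and *Eng* (0.977), and for *Pgf* *Igfbp5* (0.914), *Sema3d* (0.902) and *Svil* (0.884). The points share libraries and depth and fall into few classes, so a gene of 1 class scores high with any other gene of that class.

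The members are on GRCm38 (reference annotation GENCODE vM21) at chr17:46016993-46032369 (*Vegfa*), chr19:6982473-6987651 (*Vegfb*), chr8:54077606-54187096 (*Vegfc*), chrX:164373378-164402650 (*Vegfd*), chr12:85166635-85177790 (*Pgf*), chr5:75932827-75978458 (*Kdr*), chr5:147561604-147726011 (*Flt1*), chr11:49609263-49652739 (*Flt4*), chr8:128358604-128503363 (*Nrp1*) and chr1:62703285-62818695 (*Nrp2*). The intervals span whole protein-coding genes, exons and introns included.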

How the data were processed

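Live single UV-positive lung cells were profiled with 10x Genomics 3′ v3.1 kits in 2 libraries. The authors deposited raw UMI counts per gene and barcode, made with Cell Ranger 5.0.1 on mm10 per the submitters' processing notes, with no normalization. The libraries held 48762735 and 93970185 UMIs in 9669 and 10050 barcodes. Counts were summed per library and group, and groups of at least 20 cells in both libraries were compared with edgeR 4.0.16 (TMM, quasi-likelihood test, genes filtered with filterByExpr) in R 4.3.3, with the library as a block because all groups came from the same sorts. The method was tested on simulated counts. A Wilcoxon test over cells, which the study used for its clusters, was not run, since cells are not replicates. Intervals are exact at 95% and, like the floor of 3 UMIs, cover counting error only, and with 2 libraries the spread is known with little precision. Whether the libraries came from separate animals is not stated. With the library as a block, p-values rest on how far the differences between groups varied from library to library, pooled over the groups of a fit. The members, cell groups and lists were chosen with earlier results of these data known. All members were reported in each comparison, list genes by counts and the 2 with the largest change among those that passed, and the 3 genes most like each member among those with at least 20 CPM in a group mean. Alternatives were RLE size factors, plain library totals, no count filter, DESeq2 1.42.0, no library block, stricter or looser classes, 5% mitochondrial UMIs and thinned cells.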

Additional observations from a re-analysis of the deposited data

Results flagged for a closer look

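Cells of no class, 317 in library 1 and 115 in library 2, enter no comparison, and 3 members stood above every class there. *Vegfa* was at 521 CPM in library 2 (95% exact Poisson interval 429 to 627), against 284 CPM in the highest class of that library. Of its 112 UMIs, 101 lay in 30 cells with at least 3 UMIs of the AT1 list, which held 2226 CPM, and the other 85 cells were at 64.9 CPM. Library 1 did not show this: its cells of no class held *Vegfa* at 108 CPM, below its stromal (166 CPM) and endothelial (393 CPM) cells, and the 7 such cells were at 148 CPM, from 4 UMIs.

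*Pgf* was at 83.8 CPM in the cells of no class of library 2 (49.6 to 132 CPM), from 18 UMIs, against 4.87 CPM in the highest class. Of these UMIs, 16 lay in 11 cells with at least 3 UMIs of a smooth muscle list and 15 in 20 cells with at least 3 UMIs of a pericyte list, and the lists overlap. Library 1 held no *Pgf* UMI in its cells of no class. *Vegfb* was at 76.3 CPM in those cells of library 1 (52.8 to 107 CPM), against 58.0 CPM in stromal cells, and at 32.6 CPM in library 2. These cells had medians of 997 and 1279 UMIs, and 3 red cell genes summed to 14988 and 38297 CPM in them. The part of these in the member values was not tested.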

How the results depend on the processing

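Over the members' fold changes, 643 values were recomputed under alternatives, of which 597 kept their direction and side of the threshold, 23 lost the call, 11 gained it and 12 changed sign. None of those that changed sign was a call. Under plain library totals (added after seeing the data) these were *Vegfa* (-0.0440) and *Vegfb* (-0.0927) for epithelial against stromal cells and *Vegfb* (0.28) for endothelial against immune cells. Without AT1-like cells *Vegfa* was -0.29 for epithelial against stromal cells. With cells thinned to 2000 UMIs *Flt1* was 0.20 for epithelial against stromal cells and *Vegfd* 0.87 for epithelial against immune cells. In DESeq2 *Flt4* was 0.0120 for epithelial and 1.24 for immune against stromal cells. With at least 5 UMIs of class markers *Kdr* was 0.96 for immune against stromal cells and *Vegfb* 0.0843 for endothelial against immune cells, and in strict classes *Vegfb* was 0.29 there and *Flt1* 0.14 for adventitial against alveolar cells. The cause was not tested.

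The library pairs the groups, since the groups of a library are cells of 1 sort. With no replicate block, the pairing was left out, and between adventitial and alveolar cells 0 of 10 members (edgeR, 6 of them at an unadjusted p under 0.05) and 311 genes passed, against 5 and 1327 with it. DESeq2 called 3 members and 637 genes there, and a fit of the 4 sums alone 2773 genes. With thinned cells, 9065 genes could be tested, and 3387 (epithelial against stromal), 2822 (endothelial against epithelial), 2924 (endothelial against immune) and 3508 (epithelial against immune) passed. Counts of calls from 1 library were not possible, since no residual degrees of freedom remain. Of 122 single-library ratios, 43 lay within 1 SD of the fitted value, 79 did not, and none reversed a call. The planned test of AT1-like against AT2-like cells was not run, since library 1 held no AT1-like cell. Depth limits the endothelial values of library 1, where 3 UMIs made 25.1 CPM.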
